A study of Mus musculus with 14 samples.

Results

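The genes described here were 10 markers of fetal liver and of liver progenitor or bile duct cells, *Afp*, *H19*, *Igf2*, *Gpc3*, *Dlk1*, *Epcam*, *Sox9*, *Krt19*, *Spp1* and *Cd24a*, out of 24972 genes in the deposited RNA-seq values. They were picked by symbol, as markers that hepatocellular carcinoma (HCC) shares with the embryonic liver or with the biliary lineage. All 10 were in the deposited values, and the 7 that averaged 10 normalized counts or more over the libraries were tested. *Igf2*, *Gpc3* and *Dlk1* were below that level and are given as values only.

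The study removed the enzymes that make acetyl-CoA in the cytosol and nucleus, ACLY (from citrate) and ACSS2 (from acetate), from a mouse HCC line, and RNA-seq was done on cells kept for 24 hours in DMEM with 10% calf serum. The parental cells came from a tumour that diethylnitrosamine had induced in a mouse with floxed *Acly* (Acly f/f), and all 4 genotypes share this origin. WT cells (4 libraries) kept both enzymes. ACLY KO cells (4 libraries) were a clone isolated after adenoviral Cre. Both of these carried an empty LentiCRISPR v2 vector and were used as bulk populations after puromycin selection. ACSS2 KO cells (3 libraries) and the ACLY/ACSS2 double knockout DKO1 (3 libraries) were each a single-cell clone made from the WT and the ACLY KO cells, with a guide RNA to the first exon of *Acss2*. Each knockout genotype was thus 1 clone, and genotype and clone cannot be told apart. The methods list RNA-seq among the experiments without independent replication, so p-values here measure the spread between libraries, which may be technical. Libraries are numbered as in the labels, 1 to 4 for WT and ACLY KO, 1, 2 and 4 for ACSS2 KO, and 1, 3 and 4 for DKO1, and values below follow that order.

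In the embryo, hepatoblasts give rise to both hepatocytes and bile duct cells. Genes such as *Afp*, *H19*, *Igf2*, *Gpc3* and *Dlk1* are abundant in hepatoblasts and are shut down in the liver after birth, whereas *Sox9*, *Krt19*, *Epcam*, *Spp1* and *Cd24a* stay on in the bile ducts and in progenitor cells. Liver tumours can turn either set back on, and alpha-fetoprotein, the product of *Afp*, is a serum marker of HCC.

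The knockouts were first checked in the values. *Acly* was between 5461 and 6435 normalized counts in the WT and ACSS2 KO libraries and between 931 and 1084 in the ACLY KO and DKO1 libraries. *Acss2* was between 224 and 252 in WT, between 127 and 135 in ACSS2 KO, between 660.4 and 787 in ACLY KO and between 455 and 578 in DKO1, so its mRNA remained in both clones made with the guide. Implied depth was 19164067 to 33522192 reads. In 4 libraries the deviation of a gene from its genotype mean went down with transcript length, with Spearman correlations across 12586 genes of -0.605 in WT replicate 2, -0.588 in ACLY KO replicate 4, -0.540 in ACSS2 KO replicate 1 and -0.694 in DKO1 replicate 4. In the other 10 libraries it ran from 0.044 to 0.657. WT replicate 2 and DKO1 replicate 4 also had the highest totals, and results that rest on them are given with and without them. As a check of cell identity, 14 of the 25 mature hepatocyte genes found in the values had a mean under 1 normalized count over all libraries, among them *Apoa1*, *Cps1* and *G6pc*. Markers of other cell types were in part expressed. *Adgre1* and *Clec4f* of macrophages, *Stab2* and *Lyve1* of sinusoidal endothelium and *Lrat* of stellate cells were also under 1 over all libraries, whereas 4 of 9 leukocyte and macrophage markers (*Cd14* and *Cd68* among them), 1 of 7 endothelial markers and 6 of 9 stellate cell and fibroblast markers (*Col1a1* and *Acta2* among them) had a mean of 10 or more.

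Loss of ACLY went with a split among the markers. *Afp* and *Spp1* were higher, and *Sox9*, *Krt19*, *Epcam* and *Cd24a* were lower, both in ACLY KO against WT cells and in DKO1 against ACSS2 KO cells. These comparisons share no library, although the DKO1 clone descends from ACLY KO cells. In each, 2 of the 7 tested members were higher and 4 were lower at an adjusted p-value under 0.05 (limma on log2(value + 1), Benjamini-Hochberg over 12711 genes), and *H19* passed in neither. The 4 lower members of the second comparison became 2 to 3 when any 1 library was left out, and 2 with a replicate block or with only the compared groups in the fit. Over all genes tested, 23.8% were higher and 24.7% lower in ACLY KO against WT, and 25.9% were higher and 27.8% lower in DKO1 against ACSS2 KO. A call in each of these comparisons was therefore common among all genes, at 48.5% and 53.7% in either direction. The median log2 fold change of the 7 members was -0.67 in ACLY KO against WT and -0.25 in DKO1 against ACSS2 KO, beside -0.0067 and 0.0057 over all genes tested. Libraries did not overlap between the groups for 2 higher and 4 lower members in ACLY KO against WT (25.9% and 27.2% of all genes) and for 2 higher and 3 lower members in DKO1 against ACSS2 KO (28.0% and 30.2%). On loss of ACSS2 fewer members passed, and so did fewer genes in all. *Spp1* alone was higher in ACSS2 KO against WT (15.1% of all genes higher, 11.0% lower, 26.0% in all), and *Spp1* and *Cd24a* were higher in DKO1 against ACLY KO (14.3% higher, 13.6% lower, 27.9% in all). Their libraries did not overlap either, as was so for 23.0% of genes upward and 19.8% downward in the first of these comparisons and for 17.4% and 17.2% in the second.

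**Figure D1:**
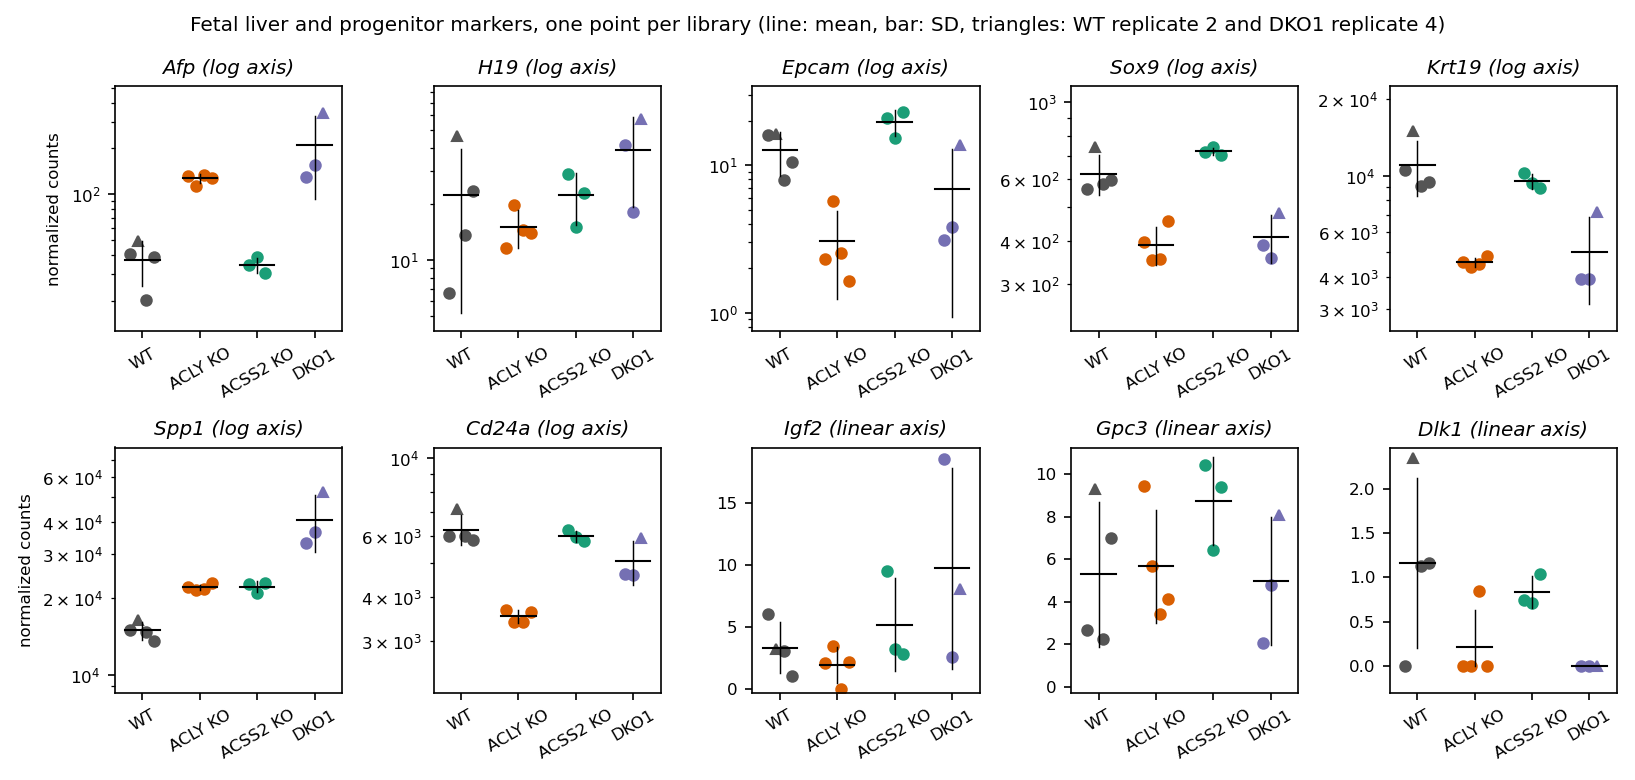
Normalized counts of the 10 markers in each of the 14 libraries, by genotype, on log axes for the 7 tested genes and on linear axes for *Igf2*, *Gpc3* and *Dlk1*. Points are libraries, horizontal lines are means and vertical lines are SDs, with triangles for WT replicate 2 and DKO1 replicate 4. All ACLY KO and DKO1 libraries lie above the WT and ACSS2 KO libraries for *Afp* and below them for *Sox9* and *Krt19*.

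Promoter sequences were taken from RefSeq (GRCm38.p6) for members that moved together and had an entry, to show what lies just upstream of their starts. Each window is the 250 bases that end at the base before the RefSeq start, read on the strand of the gene. Of the 10 members, 6 matched an entry. The windows of *Afp* and *Spp1*, the members that were higher on ACLY loss and which both lie on chromosome 5, and of *Epcam*, which was lower, are printed here. Capitals mark matches on either strand to GTTAAT (part of the site of HNF1, a liver activator), to TATAAA (the TATA element of many promoters) or to CCAAT, which reads ATTGG where it lies on the minus strand.
*Afp*, chr5:90490464-90490713, plus strand: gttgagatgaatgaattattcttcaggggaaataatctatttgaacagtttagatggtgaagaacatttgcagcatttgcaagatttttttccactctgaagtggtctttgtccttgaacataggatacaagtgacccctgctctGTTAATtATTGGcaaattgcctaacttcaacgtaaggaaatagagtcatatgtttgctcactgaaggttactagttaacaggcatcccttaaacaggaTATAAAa
*Spp1*, chr5:104434861-104435110, plus strand: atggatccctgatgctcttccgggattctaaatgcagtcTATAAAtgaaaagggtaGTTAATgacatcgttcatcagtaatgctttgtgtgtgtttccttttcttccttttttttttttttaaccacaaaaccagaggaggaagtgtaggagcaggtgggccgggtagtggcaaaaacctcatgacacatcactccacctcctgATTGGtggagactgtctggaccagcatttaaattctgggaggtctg
*Epcam*, chr17:87635729-87635978, plus strand: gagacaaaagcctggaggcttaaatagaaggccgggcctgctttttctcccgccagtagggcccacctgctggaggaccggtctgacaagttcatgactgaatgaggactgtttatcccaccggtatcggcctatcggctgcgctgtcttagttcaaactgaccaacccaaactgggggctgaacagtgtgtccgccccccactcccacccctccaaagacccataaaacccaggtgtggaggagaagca
Positions count from the RefSeq start, which lies upstream of the GENCODE start for *Afp* (90490737) and for *Spp1* (104435118). The *Afp* window held GTTAAT from base -105, CCAAT on the minus strand from -98 and TATAAA from -7, with base -1 next to the RefSeq start. The *Spp1* window held the same motifs at other positions, with TATAAA from -211, GTTAAT from -194 and CCAAT on the minus strand from -46. The *Epcam* window held none of them. No window of the 6 matched CATTCC (a TEAD site), and *Igf2* had TGGGAA (an RBPJ site) from -47. Of all 32851 RefSeq windows of this length, 6.43% held GTTAAT, 12.4% TATAAA, 33.8% CCAAT, 12.6% CATTCC and 21.6% TGGGAA on either strand. The motifs do not overlap one another in these windows.

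*Afp* (chromosome 5, 90490737 to 90508907, plus strand, GRCm38 with GENCODE) encodes the main serum protein of the fetal liver. It stood at 40.2, 49.3, 20.1 and 38.5 normalized counts in WT and at 34.2, 38.4 and 30.3 in ACSS2 KO. In the cells without ACLY it stood at 132, 114, 134 and 128 in ACLY KO and at 129.9, 157 and 343 in DKO1. Every library without ACLY lay above every library with it, the highest by far being DKO1 replicate 4. The mean was 37.0 ± 12.2 (SD) over the 4 WT libraries and 127 ± 9.17 (SD) over the 4 ACLY KO libraries, a 3.53-fold rise on the log2(value + 1) scale (log2 fold change 1.82, SE 0.29, limma adjusted p = 0.000187). In DKO1 against ACSS2 KO the rise was 5.47-fold (log2 fold change 2.45, SE 0.34, limma adjusted p = 4.73e-05), and without DKO1 replicate 4 the log2 fold change was 2.03. Per kilobase of exon, *Afp* reached 61.6 ± 4.44 (SD, n = 4) normalized counts in ACLY KO, and over all libraries its level lay at percentile 48.8 of the genes above 0. An annotated antisense gene, *Gm43449*, overlaps *Afp*. The library kit was directional, but the strand setting of the counting is not given in the sources used here.

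*Afp* lies between *Alb* and *Afm* in a cluster of related serum protein genes on chromosome 5, and the 3 did not move alike. *Alb*, serum albumin, averaged 31.4 ± 3.89 (SD) over 4 WT libraries, 23.4 ± 2.13 over 4 ACLY KO libraries, 134 ± 4.59 over 3 ACSS2 KO libraries and 11.3 ± 4.71 over 3 DKO1 libraries. It was lower in DKO1 against ACSS2 KO (log2 fold change -3.52, limma adjusted p = 3.92e-08), whereas in ACLY KO against WT it did not pass (-0.41, limma adjusted p = 0.109) except after quantile normalization (-0.58, limma adjusted p = 0.035). *Afm*, afamin, went the way of *Afp*, at log2 fold changes of 2.79 in ACLY KO against WT and 1.91 in DKO1 against ACSS2 KO (limma adjusted p = 6.03e-10 and 5.28e-08). Of the 9 tested neighbours of *Afp* within 500 kb, 3 were higher and 2 lower in ACLY KO against WT, and 4 were higher and 2 lower in DKO1 against ACSS2 KO. Among all genes the shares were 23.8% higher and 24.7% lower, then 25.9% and 27.8%.

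*H19* (chromosome 7, 142575529 to 142578143, minus strand) is a long noncoding RNA made from the maternal allele, and its neighbour *Igf2* is made from the paternal one. *H19* was at 6.61, 46.1, 13.6 and 23.4 normalized counts in WT and at 11.6, 19.8, 14.5 and 13.9 in ACLY KO. It was at 29.1, 15.1 and 22.8 in ACSS2 KO and at 41.3, 18.2 and 57.3 in DKO1. The WT libraries alone spanned most of the range of the other genotypes, and no pair of genotypes was separate. None of its comparisons passed with all libraries, including DKO1 against ACLY KO (log2 fold change 1.203, SE 0.53, limma adjusted p = 0.113). That comparison passed without DKO1 replicate 3 (1.66, limma adjusted p = 0.046), and DKO1 against WT, at 0.94 with all libraries, passed without WT replicate 2 (1.38, limma adjusted p = 0.0243). The change in ACLY KO against WT was -0.27 with all libraries and turned to 0.17 without WT replicate 2. The interval of that change with all libraries was -1.33 to 0.80.

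*Igf2*, *Gpc3* and *Dlk1* were barely above 0. *Igf2* (chromosome 7, 142650766 to 142666816, minus strand), a fetal growth factor, ran from 1.06 to 6.02 normalized counts in WT, 0 to 3.44 in ACLY KO, 2.84 to 9.49 in ACSS2 KO and 2.60 to 18.5 in DKO1. Its genotypes overlapped throughout, and the highest value came from a single library, DKO1 replicate 1. *Gpc3* (chromosome X, 52272426 to 52613950, minus strand), a cell-surface proteoglycan and HCC antigen, ran from 2.25 to 9.29 in WT, 3.41 to 9.43 in ACLY KO, 6.43 to 10.4 in ACSS2 KO and 2.04 to 8.10 in DKO1. *Gpc3* too overlapped between all genotypes. *Dlk1* (chromosome 12, 109452823 to 109463336, plus strand), an imprinted surface protein of hepatoblasts, was at 0, 2.34, 1.13 and 1.16 in WT and at 0.74, 0.72 and 1.04 in ACSS2 KO, was listed at 0 in 3 of 4 ACLY KO libraries, with 0.85 in the other, and was listed at 0 in all 3 DKO1 libraries. Of the 14 *Dlk1* values 7 were 0, which at these levels does not show absence. The signals of *Igf2* and *Gpc3* may include reads from overlapping genes, among them the antisense *Igf2os* and *A630012P03Rik*.

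*Sox9* (chromosome 11, 112782224 to 112787760, plus strand) encodes a transcription factor of bile duct cells. It was at 562, 741, 583 and 599 normalized counts in WT and at 721, 741 and 705 in ACSS2 KO. Without ACLY it was at 398, 352, 354 and 455 in ACLY KO and at 388, 358 and 482 in DKO1. All 7 libraries without ACLY lay below all 7 with it. *Sox9* fell by 0.67 on the log2 scale in ACLY KO against WT (SE 0.12, limma adjusted p = 0.000308) and by 0.83 in DKO1 against ACSS2 KO (SE 0.13, limma adjusted p = 0.000167). DKO1 and ACLY KO differed by 0.068 on that scale (interval -0.20 to 0.34).

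*Krt19* (chromosome 11, 100140810 to 100148665, minus strand), a keratin of bile duct cells, was the second most abundant member per kilobase. Its WT libraries held 10494, 15008, 9093 and 9463 normalized counts and its ACSS2 KO libraries 10221, 9338 and 8965. The ACLY KO libraries held 4571, 4391, 4502 and 4813 and the DKO1 libraries 3926, 3909 and 7178. The groups with and without ACLY did not overlap, and the highest value in both WT and DKO1 came from the libraries that stand apart. *Krt19* was 2.36-fold lower in ACLY KO than in WT (log2 fold change -1.24, SE 0.19, limma adjusted p = 0.000111) and 1.98-fold lower in DKO1 than in ACSS2 KO (-0.99, SE 0.22, limma adjusted p = 0.00194). Without DKO1 replicate 4 the latter was -1.28. *Krt19* in DKO1 against ACLY KO was 0.070 with all libraries and -0.22 without WT replicate 2 and DKO1 replicate 4, where it passed (limma adjusted p = 0.0104).

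*Krt19* lies 327.7 kb from the deleted gene *Acly*. Of the 15 tested genes within 500 kb of *Krt19*, *Acly* among them, 8 were lower and 0 higher in ACLY KO against WT, and 10 were lower and 0 higher in DKO1 against ACSS2 KO, with medians of -0.24 and -0.49 on the log2 scale. The shares over all genes were 24.7% lower and 23.8% higher, then 27.8% and 25.9%. In ACSS2 KO against WT, where ACLY was kept, 6 of these 15 were higher and 0 lower, beside 15.1% and 11.0% of all genes. The 1043 tested genes of chromosome 11 had medians of 0.15 in ACLY KO against WT, 0.091 in DKO1 against ACSS2 KO and 0.13 in ACSS2 KO against WT. Over all genes tested these medians were -0.0067, 0.0057 and 0.0013. *Sox9* lies farther along the same chromosome, and of its 2 tested neighbours 1 was higher and 0 lower in ACLY KO against WT. The part of gene position in the *Krt19* values was not tested.

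*Epcam* (chromosome 17, 87635979 to 87651129, plus strand), an adhesion molecule of biliary and progenitor cells, was scarce, with a mean of 10.2 normalized counts over all libraries that only just passed the filter. It was at 15.96, 16.4, 7.92 and 10.4 in WT and at 21.0, 15.2 and 23.0 in ACSS2 KO. It was at 2.32, 5.70, 2.55 and 1.63 in ACLY KO and at 3.10, 3.81 and 13.8 in DKO1. ACLY KO lay wholly below WT, and DKO1 lay wholly below ACSS2 KO, but DKO1 replicate 4 fell among the WT libraries. *Epcam* was 3.46-fold lower in ACLY KO than in WT (log2 fold change -1.79, SE 0.42, limma adjusted p = 0.00338) and 3.08-fold lower in DKO1 than in ACSS2 KO (-1.62, SE 0.49, limma adjusted p = 0.0136). The latter call was lost without DKO1 replicate 1 (limma adjusted p = 0.0532) or DKO1 replicate 3 (limma adjusted p = 0.0503), with the replicate block (limma adjusted p = 0.0527) and with only the compared groups in the fit (limma adjusted p = 0.0529). In DKO1 against WT *Epcam* did not pass (-0.99, interval -1.98 to 0.0041, limma adjusted p = 0.0834), but it did after quantile normalization (-1.22, limma adjusted p = 0.0404) and after a transcript length correction (-1.10, limma adjusted p = 0.0339).

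*Spp1* (chromosome 5, 104435118 to 104441050, plus strand) encodes osteopontin, a secreted protein that binds integrins and CD44, and it was the most abundant member per kilobase, at percentile 99.5 of the genes above 0. It was the only member called in all 5 pairwise comparisons. Its WT libraries held 14941, 16464, 14756 and 13561 normalized counts. The single knockouts lay above them, at 22128, 21642, 21719 and 22867 in ACLY KO and at 22749, 20952 and 22939.7 in ACSS2 KO. DKO1 was higher again, at 33081, 36398 and 52355. WT, the single knockouts and DKO1 thus formed 3 levels that did not overlap, while ACLY KO and ACSS2 KO overlapped each other.

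*Spp1* was 1.48-fold higher in ACLY KO than in WT (log2 fold change 0.57, SE 0.12, limma adjusted p = 0.00122) and 1.49-fold higher in ACSS2 KO than in WT (0.58, SE 0.13, limma adjusted p = 0.00427). DKO1 was 1.79-fold above ACSS2 KO (0.84, SE 0.13, limma adjusted p = 0.000158), 1.80-fold above ACLY KO (0.85, SE 0.13, limma adjusted p = 0.000308) and 2.67-fold above WT (1.42, SE 0.13, limma adjusted p = 8.79e-07). In DKO1 against WT 27.9% of all genes were higher and 28.1% lower (56.0% in all), and 2 members lay wholly above and 2 wholly below WT, as did 23.3% and 24.3% of all genes. Without DKO1 replicate 4, the highest library, DKO1 against ACLY KO stood at 0.65 and DKO1 against ACSS2 KO at 0.65, and both still passed. The effect of ACLY loss on *Spp1* did not differ detectably with ACSS2 present or absent (difference 0.27, interval -0.11 to 0.66, limma adjusted p = 0.281).

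*Cd24a* (chromosome 10, 43578284 to 43584265, plus strand) encodes a small, heavily glycosylated surface protein of progenitor and tumour cells. It was at 5998, 7165, 5988 and 5841 normalized counts in WT and at 6219, 5939 and 5797 in ACSS2 KO. It dropped to 3667, 3399, 3399 and 3624 in ACLY KO, and the DKO1 libraries held 4646, 4642 and 5896. ACLY KO was separate from every other genotype, and DKO1 lay between, with replicate 4 reaching into the WT and ACSS2 KO ranges. *Cd24a* was 1.77-fold lower in ACLY KO than in WT (log2 fold change -0.82, SE 0.09, limma adjusted p = 4.25e-06), whereas in DKO1 against ACSS2 KO the change was -0.25 (SE 0.10, limma adjusted p = 0.0498). The latter call was lost in 12 of the 14 fits that left out 1 library, with adjusted p-values of 0.00158 to 0.158, and it held without WT replicate 2 and without DKO1 replicate 4. It was also lost with the replicate block (limma adjusted p = 0.148), with only the compared groups (0.154), with quantile normalization (0.0759) and with no filter on low values (0.066). DKO1 was 1.43-fold above ACLY KO (log2 fold change 0.51, SE 0.09, limma adjusted p = 0.00131).

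*Cd24a* was the only tested member whose interaction, the difference between the effects of ACLY loss without and with ACSS2, passed with all libraries. It was 0.57 (SE 0.13, interval 0.29 to 0.86, limma adjusted p = 0.00623), and 12.0% of all genes had a higher and 15.1% a lower interaction (27.1% in all). It held in each of the 14 fits that left out 1 library, at 0.46 to 0.63. *Sox9* had an interaction of -0.16 with all libraries (limma adjusted p = 0.535) and of -0.37 without WT replicate 2 and DKO1 replicate 4, where it passed (limma adjusted p = 0.0276). For *Krt19* the value was 0.25 with all libraries and -0.20 without those 2 libraries, and it passed in neither case.

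**Figure D2:**
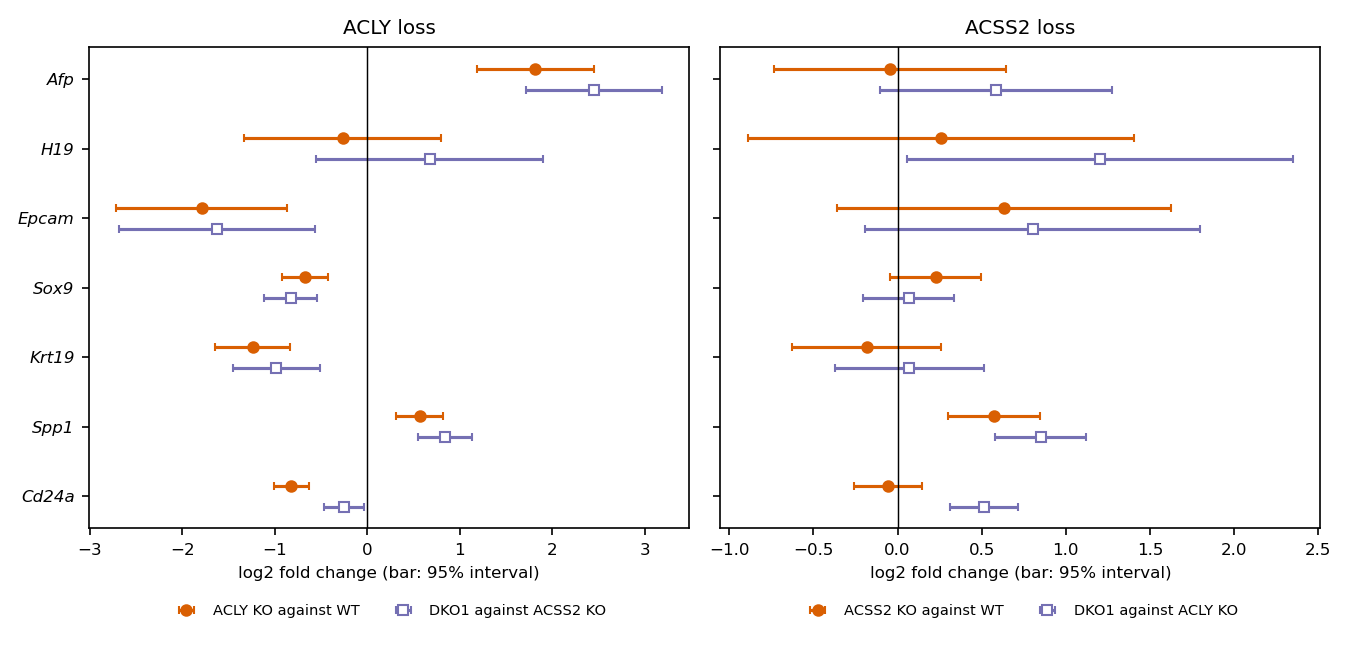
Log2 fold changes of the 7 tested markers for loss of ACLY (left: ACLY KO against WT as filled circles, DKO1 against ACSS2 KO as open squares) and for loss of ACSS2 (right: ACSS2 KO against WT as filled circles, DKO1 against ACLY KO as open squares), with 95% intervals as bars. On the left *Afp* and *Spp1* lie above 0 and *Epcam*, *Sox9*, *Krt19* and *Cd24a* below it in both comparisons, and on the right *Spp1* lies above 0 in both.

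In ACSS2 KO against WT *Spp1* was the 1 member of 7 that passed, beside 26.0% of all genes. The intervals of the log2 fold changes there were -0.73 to 0.64 for *Afp*, -0.63 to 0.26 for *Krt19* and -0.26 to 0.14 for *Cd24a*. *Sox9* was at 0.23 (limma adjusted p = 0.219), and it passed without WT replicate 2 and DKO1 replicate 4 (0.31, limma adjusted p = 0.00796). *Afp* in DKO1 against ACLY KO was at 0.59 (interval -0.10 to 1.28, limma adjusted p = 0.195) and dropped to 0.17 without DKO1 replicate 4. In DKO1 against WT, *Afp* was 5.30-fold higher (log2 fold change 2.41, limma adjusted p = 3e-05), *Sox9* was 1.52-fold lower (-0.60, limma adjusted p = 0.00115) and *Krt19* was 2.25-fold lower (-1.17, limma adjusted p = 0.000307). *Cd24a* was 1.24-fold lower there (-0.31, limma adjusted p = 0.0133), with overlapping libraries, and lost the call without DKO1 replicate 1 (limma adjusted p = 0.0546) or DKO1 replicate 3 (limma adjusted p = 0.0613) as well as after quantile normalization (limma adjusted p = 0.212) and with only the 2 groups in the fit (limma adjusted p = 0.0889).

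**Figure D3:**
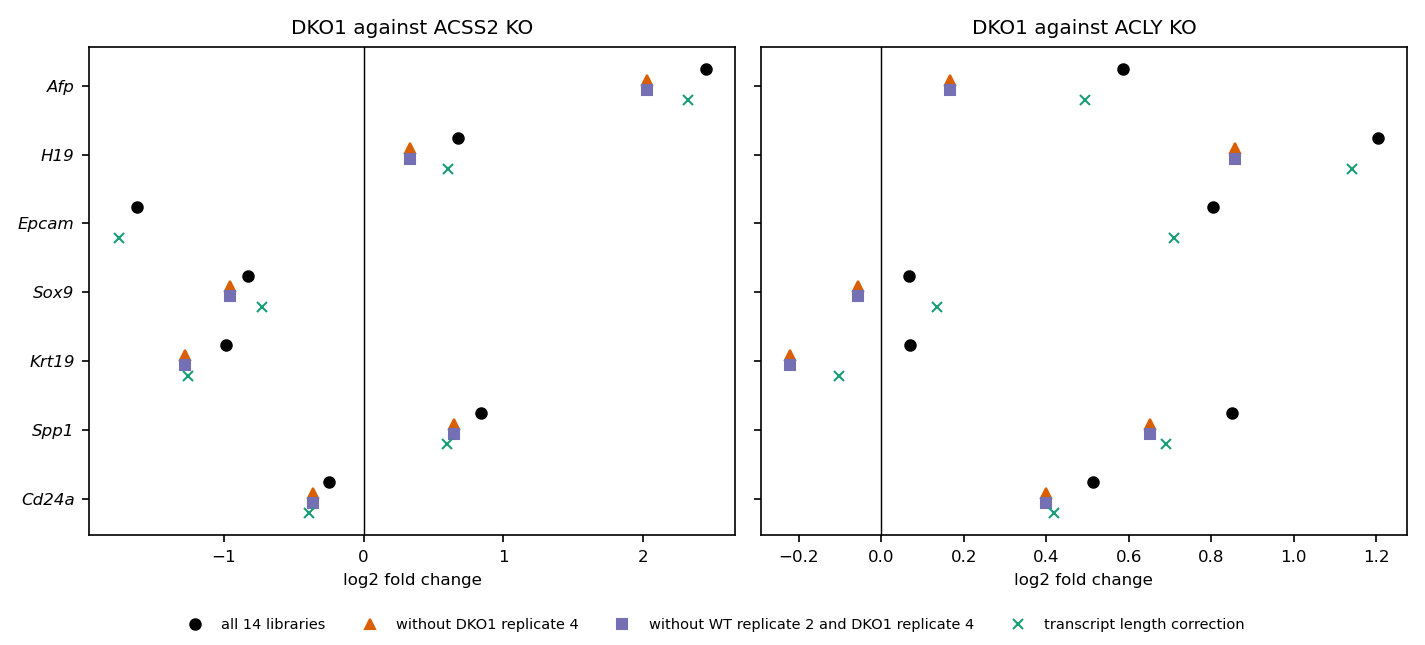
Log2 fold changes of the 7 tested markers in DKO1 against ACSS2 KO (left) and DKO1 against ACLY KO (right) with all 14 libraries (circles), without DKO1 replicate 4 (triangles), without WT replicate 2 and DKO1 replicate 4 (squares) and with a transcript length correction (crosses). Signs hold on the left, whereas on the right *Sox9* and *Krt19* cross 0, *Krt19* going from 0.070 to -0.22. *Epcam* has no triangle or square because its mean fell below 10 there.

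Ranked per kilobase of exon over all 14 libraries, *Spp1* (14587 ± 6299, SD, n = 14), *Krt19* (4798 ± 2118) and *Cd24a* (2535 ± 608) were far above *Sox9* (129 ± 36.9), *Afp* (48.1 ± 41.6) and *H19* (10.4 ± 6.43). *Epcam*, *Gpc3*, *Igf2* and *Dlk1* came last, at percentiles 35.2, 30.3, 24.6 and 11.3 of the genes above 0. By these levels the biliary and progenitor markers *Spp1*, *Krt19* and *Cd24a* were the abundant ones in every genotype. Pearson correlations of log2 values were read as a description over the 14 libraries, which differ in genotype and implied depth. The part of these differences in the correlations was not tested. Out of 11036 genes, the gene most like *Afp* was *Ogfr* (r = 0.98). Those most like *Spp1* and *Cd24a* were *Bphl* (0.99) and *H2afy* (0.99), and those most like *Krt19* and *Sox9* were *Rnf220* (0.98) and *Zfp830* (0.98). *Afp* correlated at 0.78 with *Spp1* and at -0.76 with *Sox9* over the same libraries.

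The genes known to control *Afp*, *H19* and *Gpc3* were then read from a list of 22, of which 19 were tested. In ACLY KO against WT 4 were higher and 8 lower, and in DKO1 against ACSS2 KO 3 were higher and 10 lower. Among all genes the shares were 23.8% higher and 24.7% lower, then 25.9% and 27.8%. *Zhx2*, a repressor of *Afp* and *H19* after birth, was lower in both, at log2 fold changes of -0.48 (839 ± 63.9 in WT and 599 ± 40.3 in ACLY KO, SD, n = 4 each, limma adjusted p = 0.00365) and -0.49 (limma adjusted p = 0.00747). *Zbtb20*, the other well-known *Afp* repressor, passed in neither, at -0.19 and 0.11 (limma adjusted p = 0.307 and 0.614), and only a transcript length correction brought it past the threshold in ACLY KO against WT (-0.36, limma adjusted p = 0.0453). The liver-enriched activators *Foxa2*, *Hnf4a* and *Cebpa* were lower in both, whereas *Foxa1*, a relative of *Foxa2*, was higher in both (0.67 and 0.44, limma adjusted p = 9.73e-06 and 0.00102). *Foxa2* was at -1.87 and -1.88 (limma adjusted p = 6.49e-08 and 1.88e-07), *Hnf4a* at -2.59 and -0.81 (limma adjusted p = 7.99e-07 and 0.0197) and *Cebpa* at -1.81 and -2.42 (limma adjusted p = 2.73e-05 and 6.58e-06). *Hnf4a* was also lower in ACSS2 KO against WT (-2.10, limma adjusted p = 3.92e-05). *Cebpa* was higher there (0.97, limma adjusted p = 0.0116, 0.0507 after quantile normalization), and *Foxa2* did not pass (-0.037, limma adjusted p = 0.883). *Zfp57* and *Trim28*, which keep the methylation of imprinted genes, were lower as well, at -0.80 and -0.33 in ACLY KO against WT and at -0.52 and -0.44 in DKO1 against ACSS2 KO.

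Among 24 imprinted genes, the class of *H19*, *Igf2* and *Dlk1*, 14 were tested. In ACLY KO against WT 3 were higher and 3 lower, and in DKO1 against ACSS2 KO 4 were higher and 5 lower, with list medians of -0.16 and -0.39 on the log2 scale. *Grb10*, an adaptor that dampens insulin and IGF signalling, was lower in both, at -2.38 and -3.47 (limma adjusted p = 2.6e-10 and 5.67e-11), and *Plagl1* was at -1.76 (limma adjusted p = 4.68e-07) and -0.31 (limma adjusted p = 0.143). *Gnas* was higher in both, at 0.38 and 0.27 (limma adjusted p = 0.000116 and 0.0041), the latter call lost after quantile normalization. *Impact* was at 0.25 and 0.92 (limma adjusted p = 0.0613 and 2.43e-05), and passed in the first with a length correction (limma adjusted p = 0.00997). *Dcn* was at 0.24 and -2.23 (limma adjusted p = 0.154 and 5.51e-08). Of 12 tested genes for IGF ligands, receptors and binding proteins, the partners of *Igf2*, 7 were lower and 1 higher in ACLY KO against WT and 9 were lower and 1 higher in DKO1 against ACSS2 KO. The median changes of that list were -0.59 and -1.08. The binding proteins *Igfbp2* (-2.01 and -3.30) and *Igfbp3* (-3.45 and -2.36) and the insulin receptor substrate *Irs1* (-3.04 and -2.35) passed in both comparisons, and the growth factor *Igf1* passed in the second only (-0.16, limma adjusted p = 0.0577, and -0.89, limma adjusted p = 3.45e-07). Of 15 other oncofetal genes tested, 9 were lower and 3 higher in ACLY KO against WT, and 10 were lower and 2 higher in DKO1 against ACSS2 KO. *Gpc6*, a relative of *Gpc3*, was at -1.84 and -3.50, and *Hmga2*, a fetal chromatin protein, at -0.59 and -1.24, passing in both. *Igf2bp3*, a fetal RNA-binding protein, was higher in ACLY KO against WT (0.23, limma adjusted p = 0.017) and lower in DKO1 against ACSS2 KO (-2.56, limma adjusted p = 9.43e-11). In ACSS2 KO against WT, *Grb10* (0.96), *Plagl1* (0.83), *Dcn* (2.40), *Igfbp2* (1.29), *Gpc6* (1.64) and *Igf2bp3* (1.79) were higher. *Igfbp3* was lower there (-1.25), and *Gnas*, *Impact*, *Irs1*, *Igf1* and *Hmga2* did not pass in the reported setting. DKO1 against ACSS2 KO is set against these ACSS2 KO levels. Over all genes tested, 23.8% were higher and 24.7% lower in ACLY KO against WT, and 25.9% and 27.8% in DKO1 against ACSS2 KO. Most listed fetal genes were not called higher beside *Afp*, as was so for most genes tested.

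**Figure D4:**
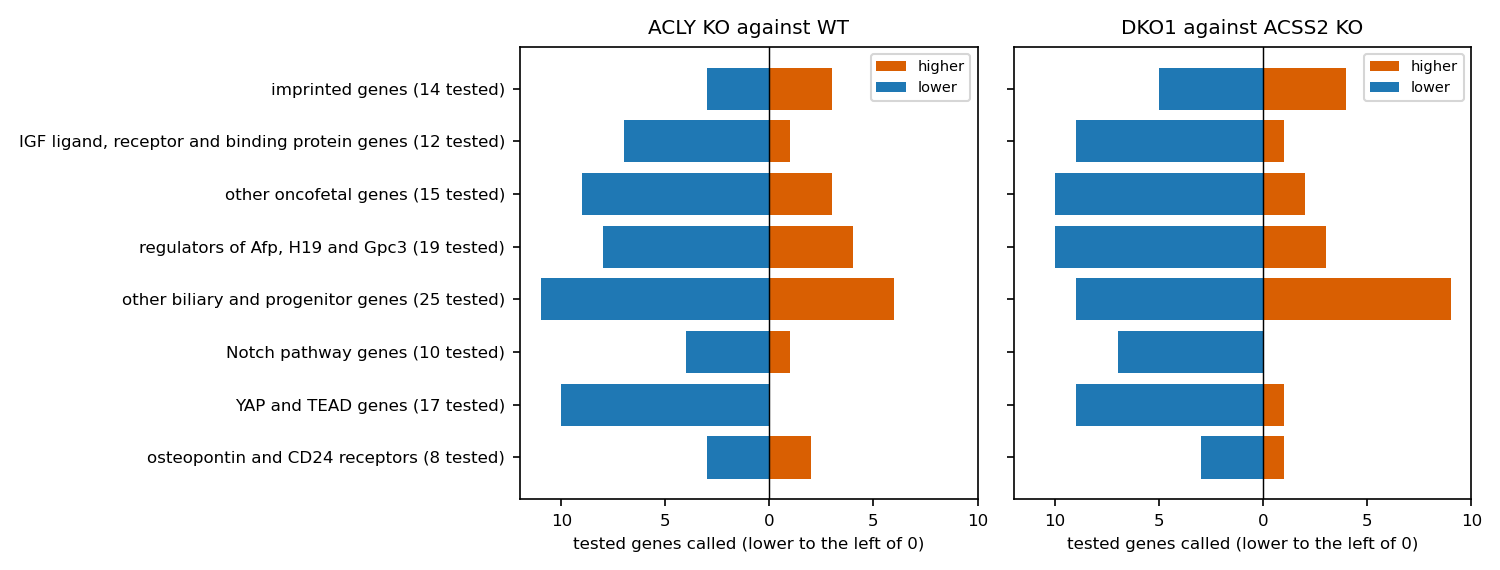
Number of tested genes called higher (orange, right of 0) and lower (blue, left of 0) at an adjusted p under 0.05 in 8 gene lists related to the markers, in ACLY KO against WT (left panel) and DKO1 against ACSS2 KO (right panel). Lists of IGF, other oncofetal, Notch and YAP and TEAD genes have more lower than higher calls in both panels, beside 23.8% to 27.8% of all genes called in each direction.

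The other genes of the biliary and progenitor program followed *Sox9* and *Krt19* in part. Of 25 tested, 11 were lower and 6 higher in ACLY KO against WT, and 9 were lower and 9 higher in DKO1 against ACSS2 KO, with medians of -0.22 and -0.021. The shares over all genes were 24.7% lower and 23.8% higher, then 27.8% and 25.9%. *Krt7*, the other classic bile duct keratin, went from 13364 in WT to 3993 in ACLY KO (log2 fold change -1.73, limma adjusted p = 1.37e-07) but did not pass in DKO1 against ACSS2 KO (-0.14, limma adjusted p = 0.424). Without WT replicate 2 and DKO1 replicate 4 the latter passed as well (-0.33, limma adjusted p = 0.000221). *Cdh1*, E-cadherin, was lower in both, at -3.21 and -1.53 (limma adjusted p = 1.46e-10 and 2.38e-07), and *Lamb3*, a laminin chain, was higher in both, at 1.198 and 1.47 (limma adjusted p = 1.51e-09 and 7.85e-10). *Aqp1*, a water channel of bile duct cells, was at -0.058 (limma adjusted p = 0.414, 0.052 with equal library totals) and -1.68 (limma adjusted p = 3.74e-10). In ACSS2 KO against WT *Aqp1* was higher (0.59), whereas *Krt7* (-0.55), *Cdh1* (-1.52) and *Lamb3* (-1.18) were lower.

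Notch signalling and YAP with its TEAD partners act upstream of *Sox9* in the biliary lineage. Of 10 Notch pathway genes tested, 4 were lower and 1 higher in ACLY KO against WT, and 7 were lower and 0 higher in DKO1 against ACSS2 KO. *Hes1*, a direct Notch target, was at -1.08 and -1.38 (limma adjusted p = 0.000788 and 0.000348), and the ligand *Jag2* at -1.92 and -3.29 (limma adjusted p = 5.77e-07 and 1.26e-08). In ACSS2 KO against WT *Jag2* was higher (0.75, limma adjusted p = 0.00635). *Hes1* did not pass there (0.28, limma adjusted p = 0.423), but did without WT replicate 2 and DKO1 replicate 4 (0.45, limma adjusted p = 0.000315). Of 17 YAP and TEAD genes tested, 10 were lower and 0 higher in ACLY KO against WT, and 9 were lower and 1 higher in DKO1 against ACSS2 KO. Beside these 2 lists, 24.7% of all genes were lower and 23.8% higher in the first comparison, and 27.8% and 25.9% in the second. The part of either pathway in the *Sox9* values was not tested. *Ankrd1*, *Amotl2* and *Lats2*, all targets of YAP, were lower in both, at -1.10, -0.64 and -0.69 and then at -0.52, -0.81 and -0.77. The gene that was higher in DKO1 against ACSS2 KO was *Cyr61* (0.56, limma adjusted p = 1.46e-05), which was lower in ACLY KO against WT (-0.45, limma adjusted p = 3.23e-05), and it passed in neither after quantile normalization.

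Of 8 tested receptors and partners of osteopontin and CD24, 2 were higher and 3 lower in ACLY KO against WT, and 1 was higher and 3 lower in DKO1 against ACSS2 KO. Among all genes the shares were 23.8% higher and 24.7% lower, then 25.9% and 27.8%. *Itgb3*, an osteopontin-binding integrin chain, was higher in ACLY KO against WT (1.32, limma adjusted p = 2.45e-08) and lower in DKO1 against ACSS2 KO (-0.61, limma adjusted p = 8.09e-05). *Itga9*, another such chain, was lower in both, at log2 fold changes of -1.19 and -3.76 (limma adjusted p = 0.00208 and 3.12e-07). In contrast to *Spp1*, no receptor on the list was higher in both of these comparisons. In ACSS2 KO against WT *Itga9* was higher (2.27, limma adjusted p = 6.53e-05). *Itgb3* was higher there too (0.31, limma adjusted p = 0.016), but not after quantile normalization or a length correction.

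Mature hepatocyte genes were read beside *Afp*. Of the 7 tested, 4 were higher and 0 lower in ACLY KO against WT, and 5 were higher and 1 lower in DKO1 against ACSS2 KO, *Alb* being the lower one. For these and the other marker lists below, the shares over all genes were 23.8% higher and 24.7% lower, then 25.9% and 27.8%. *Gc*, the vitamin D binding protein, was at 0.47 and 2.67 (limma adjusted p = 0.000255 and 1.74e-10), and *Tat*, tyrosine aminotransferase, at 0.013 (limma adjusted p = 0.966, -0.155 with quantile normalization) and 3.62 (limma adjusted p = 2.87e-08). The summed level of the list was 404 to 488 normalized counts in WT, 670.2 to 726 in ACLY KO, 579 to 629 in ACSS2 KO and 2791 to 2886 in DKO1. *Gc* alone averaged 216, 299, 314 and 2012 in the same order of genotypes, so it made up most of the DKO1 sum. Markers of other cell types were summed in the same way, as a description. The samples were a cultured line, with each knockout genotype from a single clone. These bulk sums give marker RNA and do not measure shares of cell types. The 9 leukocyte and macrophage markers summed to 1423 to 1538 in WT, 1491 to 1533 in ACLY KO, 1624 to 1738 in ACSS2 KO and 1529 to 1842 in DKO1. *Cd14*, *Cd68* and *Cd74* averaged 253, 48.7 and 18.7 in WT, and *Adgre1*, *Lyz2*, *Itgam* and *Clec4f* were under 1 over all libraries. Most of that sum in WT therefore came from the remaining gene of the 4 tested, which is not named here. Of the 4 tested, 1 was higher (*Cd74*) and 1 lower (*Cd14*) in ACLY KO against WT, and 2 were higher (*Cd74* and *Cd68*) and 0 lower in DKO1 against ACSS2 KO. The 7 endothelial markers summed to 18.6 to 28.3 in WT, 77.9 to 93.1 in ACLY KO, 11.2 to 19.03 in ACSS2 KO and 43.1 to 51.8 in DKO1, and only *Pecam1* among them had a mean of at least 10. The 9 stellate cell and fibroblast markers summed to 2047 to 2354 in WT, 3440 to 3762 in ACLY KO, 4522 to 5402 in ACSS2 KO and 1901 to 2106 in DKO1. That sum was mostly *Acta2*, with means of 1657, 630.4, 4454 and 774, and *Col1a1*, with means of 428, 2454, 523 and 477, in the same order of genotypes, and it did not follow the count of called markers. Of the 6 tested, 4 were higher and 1 (*Acta2*) lower in ACLY KO against WT and in DKO1 against WT, and 3 were higher and 1 (*Acta2*) lower in DKO1 against ACSS2 KO. The collagens *Col3a1* (log2 fold changes 2.30 and 3.06, limma adjusted p = 8.4e-09 and 1.9e-09) and *Col1a2* (1.53 and 2.38, limma adjusted p = 0.000203 and 1.48e-05) were higher in both ACLY comparisons, as *Afp* was. The endothelial sum was also higher in the genotypes in which *Afp* was higher, with *Tek*, *Stab2*, *Lyve1* and *Tie1* under 1 over all libraries, and the part of these markers in the *Afp* values was not tested.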

How the data were processed

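RNA-seq values of 14 libraries of mouse HCC cells were analysed. Per the methods, poly(A) libraries made with a directional kit were sequenced as single-end reads and mapped to GRCm38 (mm10). The authors deposited 1 signal value per gene and library, an estimated count scaled by a DESeq normalization factor. Such values are not whole reads, and how reads were assigned to genes is not given in the sources used here, so a count model was not used and depth was only implied from the value of 1 read. Because of this no counting interval was given, and precision came from the spread between libraries.

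Values were tested as log2(value + 1) with limma 3.58.1 in R 4.3.3, with an intensity trend, 1 coefficient per genotype and all 14 libraries, for the 12711 genes that averaged 10 or more. A gene was called at a Benjamini-Hochberg adjusted p under 0.05 over all genes tested. A fold change on this scale understates the change of low genes. The interaction was the effect of ACLY loss without ACSS2 minus that with it. The members and lists were chosen with earlier results of these data known. Named genes were the members, the 3 lowest adjusted p-values per list in each ACLY comparison, *Zhx2*, *Zbtb20*, and for each tested member the gene most correlated with it. Not all are named, *Alb* and *Afm* are also given as neighbours of *Afp*, and *Foxa1* was added outside this rule as a relative of *Foxa2*. Gene positions and exon lengths came from GENCODE for GRCm38. Alternatives were other constants, filters, scalings, a length correction, a replicate block, fits without libraries, and stricter limits. The procedure was tested on simulated data. There were 26 gene symbols that appear as dates, which were not matched.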

Additional observations from a re-analysis of the deposited data

Results flagged for a closer look

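Within each genotype of 4 libraries, every member was searched for a library that lay far from the others, a test that chance passes in about 1 of 20 groups. *Cd24a* stood out in WT replicate 2, at 7165 normalized counts beside 5841 to 5998 in the other WT libraries, so that its gap was 0.882 of the whole range. *Dlk1* stood out in ACLY KO replicate 3, where 0.85 was the only value of that genotype above 0, which is about the worth of 1 read. In *Cd24a* the effect of ACLY loss also differed with ACSS2, by 0.57 on the log2 scale (limma adjusted p = 0.00623), as given above. WT replicate 2 is one of the libraries with a negative correlation with transcript length, and the part of that trend in the *Cd24a* value was not tested. Without WT replicate 2 and DKO1 replicate 4, *Cd24a* kept its call in ACLY KO against WT.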

How the results depend on the processing

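Of 911 values computed under other settings, 853 kept their direction and side of the threshold, 24 lost a call, 9 gained one and 25 changed sign, counting single genes. Under the study's limits (absolute log2 fold change over 1.5, adjusted p under 0.01), 1 member was higher (*Afp*) and 1 lower (*Epcam*) in ACLY KO against WT, 1 higher (*Afp*) and 0 lower in both DKO1 against ACSS2 KO and DKO1 against WT, and 0 were higher in ACSS2 KO against WT, in DKO1 against ACLY KO and in the interaction. The lower members in DKO1 against ACSS2 KO numbered 2 (*Sox9* and *Krt19*) in place of 4 with the replicate block (*Epcam* -1.37, adjusted p = 0.0527, *Cd24a* -0.21, adjusted p = 0.148) and with only the compared groups in the fit, and 2 to 3 with 1 library left out, where in 6 of 14 cases *Epcam* fell under the filter. In ACSS2 KO against WT 2 members were higher (*Sox9* and *Spp1*) with equal library totals, without WT replicate 2 and DKO1 replicate 4, and without all 4 libraries with a negative length correlation, the last chosen after seeing the data. Both of these last settings gave 1 lower member in DKO1 against ACLY KO (*Krt19*) and 1 in the interaction (*Sox9*).

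Whether the replicate numbers pair the samples could not be told, since the ranges of correlation overlapped. Same-numbered libraries correlated at -0.431 to 0.447 in their deviations from the genotype means, and different-numbered ones at -0.497 to 0.619. Of 14 libraries, 6 correlated best with their own number. The replicate block changed no other count of members.

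Signs that changed were small. *H19* in ACLY KO against WT was 0.17 without WT replicate 2, also with DKO1 replicate 4 left out, and 0.20 without 4 libraries (-0.71 to 0.17 with 1 library left out). In ACSS2 KO against WT, *Afp* was 0.058 with equal totals, 0.11 without 2 or 4 libraries and -0.31 to 0.11 with 1 left out, *Cd24a* was 0.049 with equal totals, 0.074 with quantile normalization, 0.010 without 2 libraries and -0.088 to 0.010 with 1 left out, and *H19* was -0.18 to 0.70 with 1 left out. In DKO1 against ACLY KO, *Krt19* was -0.10 with length correction, -0.22 and -0.20 without 2 and 4 libraries and -0.22 to 0.22 with 1 left out, and *Sox9* was -0.056 without 2 and -0.056 to 0.16 with 1 left out. In the interaction, *Spp1* was -0.11 with quantile normalization, *Krt19* was -0.20 and -0.12 without 2 and 4 libraries and -0.037 to 0.40 with 1 left out, and *Epcam* was -0.008 to 0.52 with 1 left out. The cause was not tested. With equal library totals the median of all genes moved to 0.10 in ACLY KO against WT and 0.11 in ACSS2 KO against WT, and calls became 3823 higher and 2352 lower in the former, 2565 and 816 in the latter and 972 and 2491 in the interaction. In ACSS2 KO against WT 3311 genes were called with all libraries, 6096 without WT replicate 2 and DKO1 replicate 4, 5095 without DKO1 replicate 4 alone and 4988 with length correction. DKO1 against ACLY KO went from 3550 to 5511 without those 2 libraries and to 2168 with only the compared groups, and the interaction from 3442 to 5615. Over the reported setting and 5 others of scaling, length and libraries, YAP and TEAD genes numbered 0 to 1 higher and 9 to 15 lower in ACLY KO against WT. In DKO1 against ACSS2 KO they numbered 1 to 4 higher and 9 to 12 lower, Notch genes 0 to 3 higher and 6 to 7 lower, biliary and progenitor genes 8 to 11 higher and 9 to 13 lower, and the regulators of *Afp*, *H19* and *Gpc3* 2 to 6 higher and 9 to 10 lower.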

Other observations

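Among the markers of other cell types, *Pecam1* was the 1 endothelial gene tested and *Cd74* was 1 of 4 leukocyte and macrophage genes tested. *Pecam1*, an adhesion molecule of endothelium and some blood cells, averaged 7.51 normalized counts in WT and 9.31 in ACSS2 KO, but 61.7 in ACLY KO and 37.7 in DKO1. It was higher in ACLY KO against WT (log2 fold change 2.97, limma adjusted p = 1.19e-06) and in DKO1 against ACSS2 KO (1.94, limma adjusted p = 0.000175). *Cd74*, the invariant chain of MHC class II, averaged 18.7 in WT and 25.5 in ACSS2 KO, but 122 in ACLY KO and 53.3 in DKO1. It was higher in the same comparisons (2.66, limma adjusted p = 3.62e-08, and 1.03, limma adjusted p = 0.000526). Both genes thus differed in the direction of *Afp*. *Selp*, P-selectin, a binding partner of CD24, averaged 232 in WT against 20.8 to 30.9 in the knockout genotypes. It was lower in ACLY KO against WT (-3.14, limma adjusted p = 1.9e-07) and in ACSS2 KO against WT (-2.85, limma adjusted p = 4.4e-06), which share their WT libraries.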
